A study of Homo sapiens with 4 samples.

Results

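The genes described here are 10 alpha and beta tubulin genes: the alpha isotypes TUBA1A, TUBA1B, TUBA1C and TUBA4A, and the beta isotypes TUBB, TUBB2A, TUBB2B, TUBB3, TUBB4B and TUBB6. They are 10 of the 25283 rows of the deposited count table, taken by gene symbol. The family was selected on these same libraries, with the difference between the groups known, so its levels in the groups are given as a description without a test of their own. RNA was sequenced from cells labelled as neurons, which were grown from the H1 line of human embryonic stem cells by way of neural progenitors and neuronal precursors. The control group held 2 libraries of wild type cells with an empty vector. The U1_OE group held 2 libraries of cells given a lentiviral vector that overexpresses U1 snRNA, the RNA that pairs with 5′ splice sites at the start of splicing. Both groups were labelled with 36 h of vector treatment. The treatment text of the control samples also names the overexpression vector, so samples were grouped by title and genotype label. U1 snRNA was not analysed here, and its overexpression was therefore not checked. Whether the libraries of a group were separate cultures is not stated, so p-values reflect only how these libraries spread, which may be technical.

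Alpha and beta tubulin bind GTP, pair into heterodimers, and assemble head to tail into the hollow tubes called microtubules, which carry transport along axons and form the mitotic spindle. Each is encoded by a family of isotype genes with nearly the same folded core and a divergent acidic tail at the carboxyl end, where motors, severing enzymes and modifying enzymes act. In neurons TUBB3 is the beta isotype used as a marker of the cell type, TUBA1A is the leading alpha isotype of the developing brain, and TUBB2A and TUBB2B are also abundant, while TUBB, TUBA1B and TUBA1C are used by dividing cells of many kinds.

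The carboxyl tail is where the isotypes part, so the last 60 coding bases of each beta gene are shown first, stop codon included, 5′ to 3′ on the coding strand. They come from the coding transcript chosen for each gene in GENCODE v29 on GRCh38. Capitals mark bases that do not match TUBB in an alignment of the whole coding sequences.
TUBB: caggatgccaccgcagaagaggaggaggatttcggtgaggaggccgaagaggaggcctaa
TUBB2A: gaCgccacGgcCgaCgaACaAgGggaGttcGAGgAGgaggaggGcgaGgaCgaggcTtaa
TUBB2B: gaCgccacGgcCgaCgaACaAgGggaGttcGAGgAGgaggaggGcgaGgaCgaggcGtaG
TUBB3: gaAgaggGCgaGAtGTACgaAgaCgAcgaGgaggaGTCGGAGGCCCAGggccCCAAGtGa
TUBB4B: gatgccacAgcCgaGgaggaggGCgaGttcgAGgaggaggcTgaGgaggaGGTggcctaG
TUBB6: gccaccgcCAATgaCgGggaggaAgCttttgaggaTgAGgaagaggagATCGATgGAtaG
Among the beta genes TUBB3 has the most tail bases unmatched to TUBB, 32 of 60, against 18 in TUBB2A, 19 in TUBB2B, 14 in TUBB4B and 20 in TUBB6. Over the whole coding sequence, identity was 84.4% to 97.2% between alpha genes, 80.95% to 98.1% between beta genes, and 55.8% to 58.4% between an alpha and a beta gene. The closest pairs were TUBB2A with TUBB2B at 98.1% and TUBA1A with TUBA1B at 97.2%.

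On GRCh38, 3 of the alpha genes lie together on chromosome 12: TUBA1B at 49127782 to 49131397 and TUBA1A at 49184796 to 49189324 on the minus strand, and TUBA1C at 49188736 to 49274603 on the plus strand. TUBA4A lies on chromosome 2 at 219249711 to 219278170, minus strand. TUBB2A, at 3153669 to 3157526, and TUBB2B, at 3224261 to 3231730, are neighbours on the minus strand of chromosome 6, and TUBB lies elsewhere on that chromosome at 30720201 to 30725426, plus strand. The remaining beta genes are on the plus strand, TUBB3 at 89921392 to 89938761 of chromosome 16, TUBB4B at 137241213 to 137243707 of chromosome 9 and TUBB6 at 12307669 to 12344320 of chromosome 18. Each chosen coding transcript has 4 exons.

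Because the genes are so alike, the share of each transcript that a short read could not assign was measured as the share of its 50-base windows that occur, on either strand, in another annotated gene. It was 87.1% for TUBA1B, of which most came from the antisense gene TUBA1B-AS1, which shares 68.7% of the windows. For TUBB3 it was 89.4%, every such window being also in a readthrough gene, AC092143.1, annotated on the same strand and not analysed here, and only 8.84% of its windows were shared with rows of the count table. TUBB2A shared 60.4% of its windows with TUBB2B. TUBA1A shared 51.8% in all, TUBB2B 52.2%, TUBA1C 40.1%, TUBA4A 32.6%, TUBB 30.8% and TUBB4B 14.6%, while TUBB6 shared 0.99%. The protocols name no strand-marking step, so the values of TUBA1A, TUBA1B and TUBA1C, of TUBB2A and TUBB2B, and of genes that overlap another gene are uncertain as to which gene the reads came from. The value of TUBB6 rests on sequence of its own, although the gene also overlaps AFG3L2 on the opposite strand.

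**Figure D1:**
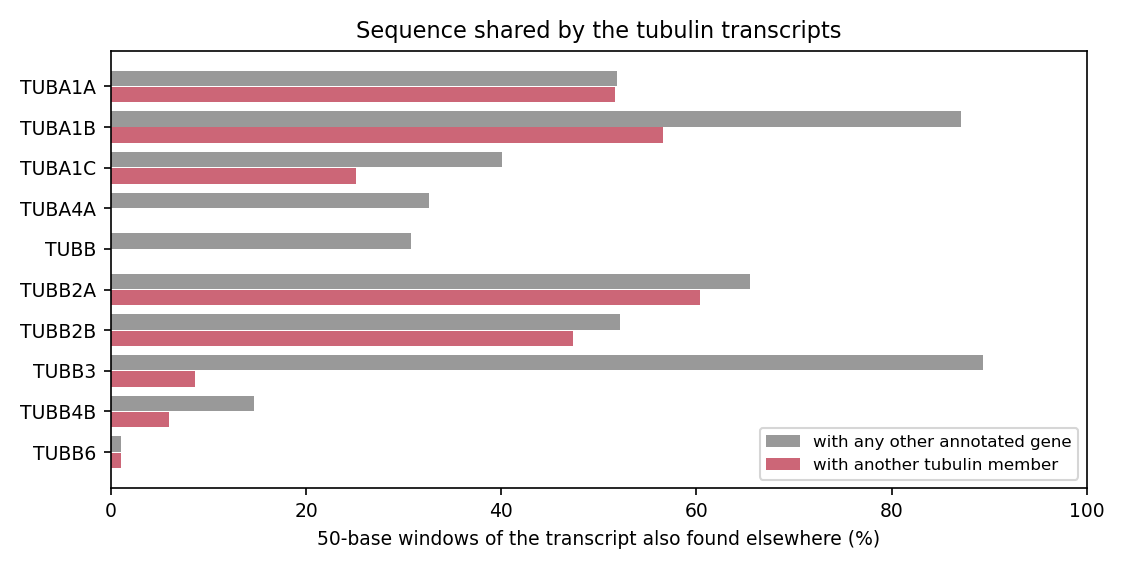
Percent of the 50-base windows of each tubulin transcript that also occur in another annotated gene (grey) or in another of the 10 tubulin genes (red). The grey bars run from 0.99% for TUBB6 to 89.4% for TUBB3, and TUBB2A has the longest red bar at 60.4%.

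The deposited estimated counts summed to 16713505 to 19057423 per library, and levels are given as TMM-scaled CPM (counts divided by the scaled library size). The cell type label was set against marker genes. Of 16 neuron markers 14 were measured, and 0 reached 10 CPM in all libraries. Of the 14, 4 were under 1 CPM in each library, among them RBFOX3 (at most 0.268 CPM), DCX (at most 0.169 CPM) and STMN2 (at most 0.318 CPM). Others were higher, with SNAP25 at 5.52 to 8.16 CPM, SYT1 at 3.65 to 8.14 CPM and MAP2 at 2.63 to 6.59 CPM. The summed level of the neuron markers was 40.3 and 27.2 CPM in control and 76.7 and 38.9 CPM in U1_OE, where GAP43 alone gave 46.9 and 11.5 CPM. All 17 mesenchymal markers reached 10 CPM in each library, with sums of 77684 and 88434 CPM in control and 93777 and 84980 CPM in U1_OE, of which COL1A1 gave 29320 to 41380 CPM. These marker levels go against the label of neuron, and the tubulin values come from libraries with high collagen RNA.

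The 10 tubulin genes together took 0.420% and 0.380% of all counts in control and 0.549% and 0.751% in the U1_OE libraries. Their summed level was 4210 and 3696 CPM in control, and 5636 and 7489 CPM in U1_OE. The U1_OE mean was 1.66 times the control mean (6562 ± 1310.1 against 3953 ± 363 CPM, SD, n = 2 each). Both U1_OE libraries lay above both control libraries, and U1_OE 2 was the highest of all. In RNA from whole cultures, more cells of a type and more RNA per cell cannot be told apart.

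Both tubulin classes were higher in U1_OE. Summed alpha tubulin was 2598 and 2325 CPM in control and 3663 and 4767 CPM in U1_OE, a ratio of means of 1.71. Summed beta tubulin was 1611 and 1371 CPM in control and 1973 and 2722 CPM in U1_OE, a ratio of 1.57. The lowest U1_OE library was above the highest control library in each class.

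Among the alpha genes, TUBA1A stood at 1073 and 936 CPM in control and 1574 and 1925 CPM in U1_OE (1005 ± 96.9 against 1749 ± 248 CPM, SD, n = 2 each), a log2 fold change of 0.80 ± 0.17 (SE) in edgeR's fit. TUBA1B, an alpha isotype of most proliferating cells, stood at 903 and 921 CPM in control and 1343 and 1679 CPM in U1_OE (912 ± 13.0 against 1511 ± 238 CPM), a log2 fold change of 0.73 ± 0.16. For TUBA1C the levels were 579 and 447 CPM in control and 716 and 1118 CPM in U1_OE (513 ± 93.1 against 917 ± 284 CPM), a log2 fold change of 0.84 ± 0.27. These 3 genes were apart between the groups, with U1_OE 2 highest each time, and the levels of TUBA1C in the U1_OE libraries were the most spread. TUBA4A, an alpha isotype whose gene already encodes a tail without the terminal tyrosine, was at 43.7 and 21.1 CPM in control and 30.6 and 44.2 CPM in U1_OE, and the groups overlapped (log2 fold change 0.21 ± 0.39).

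The beta genes did not share one pattern. TUBB, the broadly expressed beta isotype, was at 841 and 780.1 CPM in control and 1070.5 and 1357 CPM in U1_OE (811 ± 43.3 against 1214 ± 203 CPM), a log2 fold change of 0.58 ± 0.17. TUBB3 was at 159 and 103 CPM in control and 263 and 337 CPM in U1_OE (131 ± 39.3 against 300.2 ± 52.4 CPM), a log2 fold change of 1.19 ± 0.26, the largest of the 10. TUBB6, a divergent isotype found outside the nervous system as well, was at 222 and 183 CPM in control and 298 and 492 CPM in U1_OE (203 ± 27.5 against 395 ± 137.0 CPM), a log2 fold change of 0.96 ± 0.28. In each of these 3 genes the U1_OE libraries lay above the control libraries, and U1_OE 2 was the highest.

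TUBB4B, a beta isotype of many tissues and of cilia, was at 184 and 156 CPM in control and 195 and 321 CPM in U1_OE (170.0 ± 20.3 against 258 ± 89.4 CPM), a log2 fold change of 0.60 ± 0.27. Its groups were apart by little, since U1_OE 1 lay just above control 1 and most of the difference came from U1_OE 2. TUBB2A was at 187 and 135 CPM in control and 136 and 196 CPM in U1_OE (161 ± 36.8 against 166 ± 42.7 CPM), a log2 fold change of 0.04 ± 0.26. TUBB2B, its near copy, was at 17.3 and 12.9 CPM in control and 10.5 and 18.3 CPM in U1_OE (15.1 ± 3.08 against 14.4 ± 5.53 CPM), a log2 fold change of -0.06 ± 0.33. In both TUBB2 genes the groups overlapped, and control 1 and U1_OE 2 were the higher libraries of each.

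**Figure D2:**
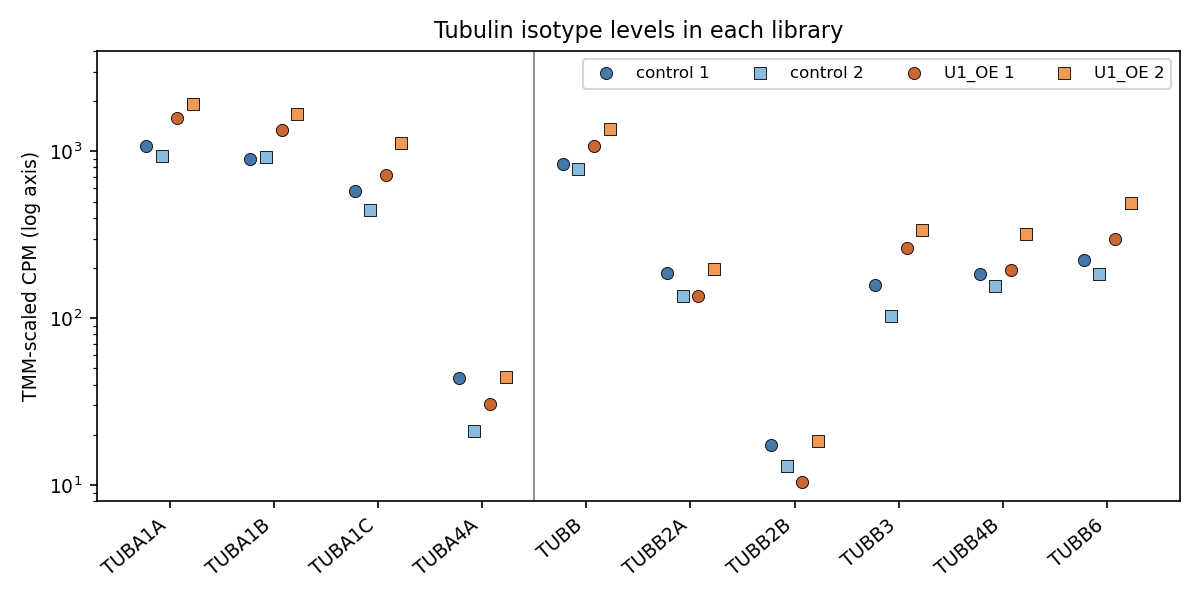
TMM-scaled CPM (log axis) of the 10 tubulin genes in each of the 4 libraries, alpha genes to the left of the line and beta genes to the right, 1 point per library. The U1_OE points lie above both control points in 7 genes, and overlap them in TUBA4A, TUBB2A and TUBB2B.

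Counting over the family, 7 of 10 genes had both U1_OE libraries above both control libraries, a pattern held by 19.7% of the 17317 genes tested. DESeq2 called 4 of the 10 higher at an adjusted p under 0.05 (TUBA1A, TUBA1B, TUBB3 and TUBB6), against 0.614% of the 17440 genes that it gave an adjusted p, and 189 genes in all, 1.08%, in either direction. edgeR's quasi-likelihood test called 0 of the 10, and 0.0% of all genes, with 0.459 as its lowest adjusted p. At an unadjusted p under 0.05 edgeR had 6 of the 10, against 9.08% of all genes (1572 of 17317). The median log2 fold change was 0.66 over the 10 and -0.005 over all genes tested. These counts carry the selection of the family on the same contrast, and nothing is read from them.

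The DESeq2 calls depended on the libraries. Without control 1 it called 1 of the 10 higher (TUBB3), against 0.26% of all genes it gave an adjusted p, and without control 2 it called 0, against 0.194%. Without U1_OE 2 it called 2 (TUBA1A and TUBB3), against 0.945%, and without U1_OE 1 it called 7, against 0.539%. The share over all genes thus moved as well, and was highest without U1_OE 2, where the tubulin count was below its value of 4 with all libraries. The log2 fold change of TUBB3 ranged from 0.92 to 1.56 over these 4 fits of edgeR. That of TUBB6 ranged from 0.55 to 1.29, and that of TUBA1A from 0.64 to 0.95. TUBA4A, TUBB2A and TUBB2B took both signs when single libraries were left out, whereas the other 7 were positive in all 4 fits. The lowest of these was 0.19, for TUBB4B without U1_OE 2.

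**Figure D3:**
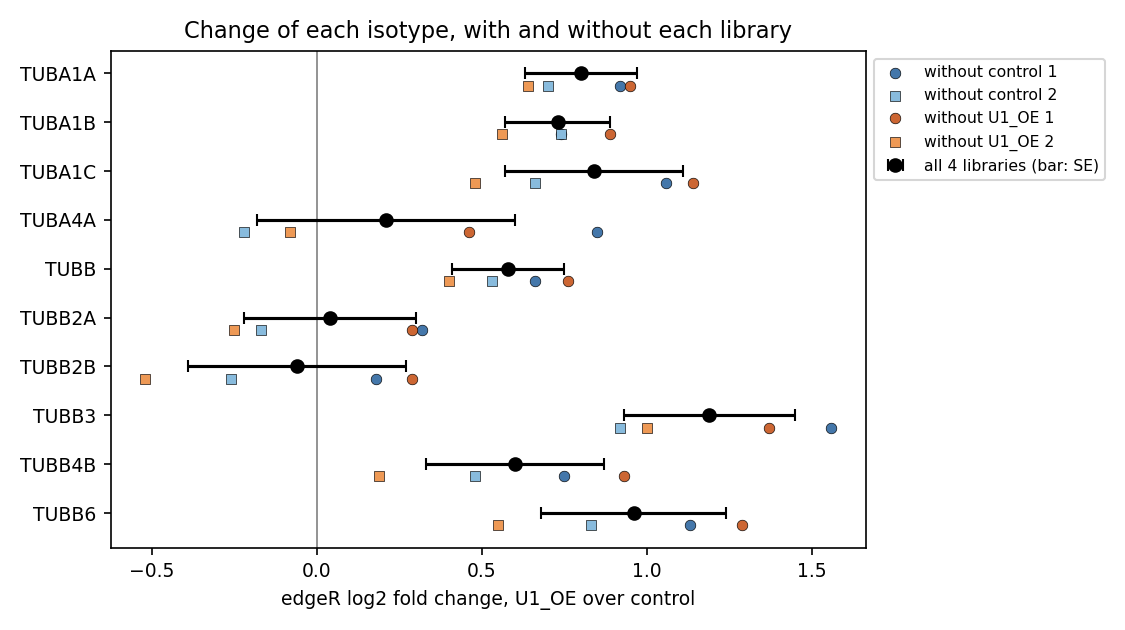
Log2 fold change of each tubulin gene, U1_OE over control, from edgeR with all 4 libraries (black, bar for the SE) and with each library left out (coloured points). TUBB3 lies furthest to the right at 1.19, and the coloured points of TUBA4A, TUBB2A and TUBB2B fall on both sides of 0.

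Composition within a class does not depend on how libraries are scaled to one another. It was computed from counts per kb of all annotated exon sequence of a gene (the exon union), which lets levels of different genes be compared. In the beta class, TUBB3 made up 6.60% and 5.10% of the level in control and 9.49% and 8.71% in the U1_OE libraries, a difference in means of 3.25 percentage points. TUBB6 made up 9.93% and 9.73% in control and 11.6% and 13.7% in U1_OE. TUBB2A made up 19.9% and 17.1% in control and 12.6% and 13.0% in U1_OE. The groups were apart for all 3, upward for TUBB3 and TUBB6 and downward for TUBB2A.

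TUBB2B, the smallest beta share, was also lower in U1_OE, at 1.45% and 1.29% in control and 0.764% and 0.955% in U1_OE. TUBB held 46.0% and 50.7% in control and 50.9% and 46.3% in U1_OE, and TUBB4B held 16.1% in each control library and 14.7% and 17.4% in U1_OE. The shares of TUBB and TUBB4B thus overlapped between groups. The shares of TUBB2A and TUBB2B were lower while their own CPM overlapped between the groups, so the lower shares go with higher levels of the other beta genes. The size of the TUBB3 share depends on the length used: with the length of the chosen coding transcript it was 12.0% and 9.35% in control and 16.5% and 15.1% in U1_OE, a difference of 5.11 points.

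In the alpha class the composition overlapped between the groups for each of the 4 genes. TUBA1A held 44.7% and 43.2% of the alpha level per kb in control and 46.1% and 43.8% in U1_OE. TUBA1B held 36.0% and 40.7% in control and 37.7% and 36.6% in U1_OE. TUBA1C held 15.3% to 18.8% over the 4 libraries and TUBA4A 0.752% to 1.52%. The alpha genes with the higher levels thus kept overlapping shares, and reads among them cannot be assigned with certainty.

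**Figure D4:**
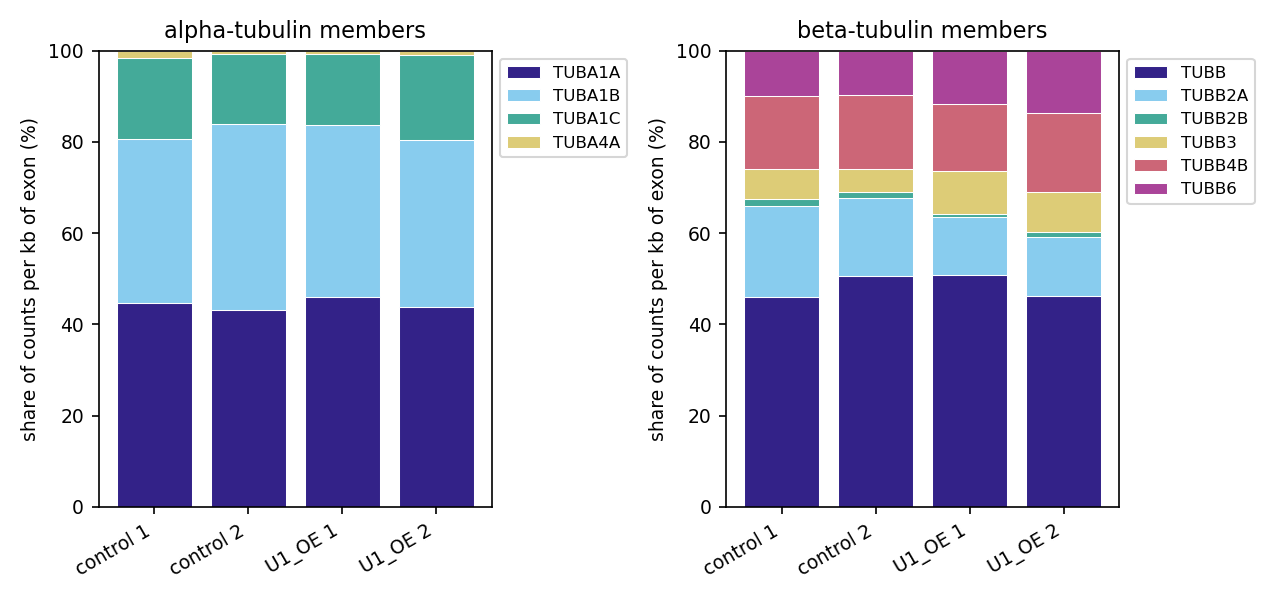
Share of each isotype in the summed counts per kb of exon of its class, in percent, for the 4 alpha genes (left) and the 6 beta genes (right), 1 stacked bar per library. In the beta bars the TUBB3 segment is 5.10% to 6.60% in control and 8.71% to 9.49% in U1_OE, and the TUBB2A segment narrows from 17.1% to 19.9% to 12.6% to 13.0%.

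Per kb of exon union, the order of levels in control was TUBA1A (294 ± 28.3 CPM per kb), TUBA1B (255 ± 3.63), TUBA1C (111 ± 20.1) and TUBA4A (7.94 ± 3.90) among alpha genes. Neighbours in that order did not overlap over the control libraries, while TUBA1A and TUBA1B overlapped in U1_OE. Among beta genes it was TUBB (241 ± 12.9 CPM per kb), TUBB2A (93.3 ± 21.3), TUBB4B (80.5 ± 9.60), TUBB6 (49.3 ± 6.67), TUBB3 (29.6 ± 8.87) and TUBB2B (6.89 ± 1.40), and only TUBB2A and TUBB4B overlapped. In U1_OE the levels of TUBB4B, TUBB2A and TUBB6 each overlapped the next in the order, down to TUBB3, between TUBB (361 ± 60.4 CPM per kb) at the top and TUBB2B (6.56 ± 2.52) at the foot. The order below TUBB changed with the length basis: per kb of chosen coding transcript TUBB6 and TUBB3 came next after TUBB in U1_OE, at 191 ± 66.4 and 170 ± 29.6 CPM per kb. On that basis the top of the alpha order changed too. TUBA1B came before TUBA1A in control (560 ± 7.98 against 525 ± 50.6 CPM per kb) and in U1_OE (929 ± 146 against 913 ± 130), overlapping in both groups.

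Ratios of counts within a library need no length or scaling. TUBB3 had 0.850 and 0.766 counts per count of TUBB2A in control and 1.94 and 1.72 in the U1_OE libraries, a 2.26-fold difference in means. TUBB3 over TUBB was 0.189 and 0.133 in control and 0.246 and 0.248 in U1_OE. TUBB6 over TUBB2A was 1.19 and 1.36 in control and 2.20 and 2.51 in U1_OE. Over TUBB, TUBB6 was apart by little, at 0.264 and 0.235 in control and 0.279 and 0.362 in U1_OE. The groups were apart in each of these ratios, and for TUBB3 and TUBB6 over TUBB2A the spread within a group was small beside the gap.

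TUBB2A over TUBB was 0.222 and 0.173 in control and 0.127 and 0.144 in U1_OE, with U1_OE lower. By contrast TUBA1A over TUBA1B was 1.19 and 1.02 in control and 1.17 and 1.15 in U1_OE, and TUBB2B over TUBB2A was 0.0924 and 0.0958 in control and 0.0773 and 0.0934 in U1_OE. The TUBA1A ratio overlapped, and the near copies TUBB2A and TUBB2B kept a ratio under 0.1 in all 4 libraries. The antisense gene TUBA1B-AS1 had 0.200 and 0.187 counts per count of TUBA1B in control and 0.171 and 0.178 in U1_OE.

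**Figure D5:**
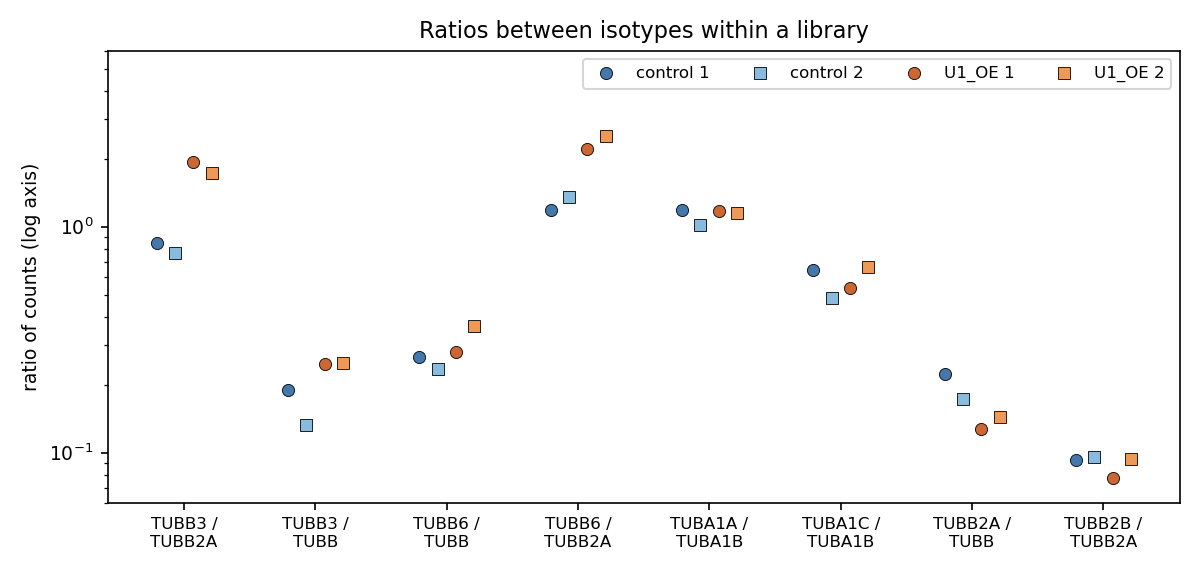
Ratio of the counts of one tubulin gene to another within each library (log axis), 1 point per library. TUBB3 over TUBB2A and TUBB6 over TUBB2A have both U1_OE points above both control points, while TUBA1A over TUBA1B lies at 1.02 to 1.19 in all 4 libraries.

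The ratio of alpha to beta tubulin, per kb of exon union, was 1.29 and 1.38 in control and 1.59 and 1.47 in U1_OE. U1_OE was above control on that basis. With the length of the chosen coding transcript the values were 1.77 and 1.94 in control and 2.10 and 1.92 in U1_OE, and the groups overlapped, so whether they are apart depends on the transcript that the reads came from.

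The profile of each gene over the 4 libraries was compared after centring its log2 CPM on its own mean. The nearest pair was TUBA1C with TUBB6, at a Euclidean distance of 0.139 on the log2 scale, followed by TUBB with TUBA1B at 0.177, TUBA1A with TUBA1B at 0.178 and TUBB2A with TUBB2B at 0.229. Over 11604 genes with a symbol and a mean of at least 50 counts, the 5 nearest to TUBB3 were CDH13 (0.139), COTL1 (0.149), BDNF (0.205), STX1A (0.206) and SORBS2 (0.217). With 4 libraries, such nearness describes these libraries only.

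CDH13, an adhesion protein of the cadherin family, was at 17.3 and 12.1 CPM in control and 32.7 and 38.1 CPM in U1_OE. COTL1, an actin-binding protein, was at 67.7 and 39.2 CPM in control and 102 and 126 CPM in U1_OE, and SORBS2, an adaptor protein of the actin cytoskeleton, at 76.6 and 41.3 CPM in control and 115 and 136 CPM in U1_OE. STX1A, a syntaxin of the presynaptic membrane, was at 29.2 and 20.1 CPM in control and 58.4 and 72.4 CPM in U1_OE, and BDNF, a neurotrophin, at 4.07 and 2.21 CPM in control and 6.48 and 7.42 CPM in U1_OE. In each of the 5, as in TUBB3, control 2 was lowest and U1_OE 2 highest. The 5 were chosen for profiles near that of TUBB3, so this shared order is not a separate result. Of the other tubulin genes, TUBB6 ranked 44, TUBA1C 50 and TUBA1A 59 by the same measure, while TUBB2A ranked 2948 and TUBB2B 5800.

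The promoters of TUBB3 and TUBB2A are shown because these genes differed in the comparison although their coding sequences are 87.7% identical. Each window runs from 250 bases before to 50 bases after a RefSeq gene start on GRCh38.p14, 5′ to 3′ on the gene's strand. Capitals mark the CCAAT box (letters CCAAT), the GC box (letters GGGCGG) and the TATA box (letters TATAAA), on either strand. The TUBB3 window is chr16:89923092-89923391, plus strand, and the TUBB2A window is chr6:3157495-3157794, minus strand.
TUBB3: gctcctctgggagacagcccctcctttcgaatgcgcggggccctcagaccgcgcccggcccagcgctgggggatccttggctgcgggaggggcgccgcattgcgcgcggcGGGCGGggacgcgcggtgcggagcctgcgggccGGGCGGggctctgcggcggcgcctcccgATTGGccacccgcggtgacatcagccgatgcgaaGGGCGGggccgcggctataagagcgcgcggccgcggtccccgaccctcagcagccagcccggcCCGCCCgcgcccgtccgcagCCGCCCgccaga
TUBB2A: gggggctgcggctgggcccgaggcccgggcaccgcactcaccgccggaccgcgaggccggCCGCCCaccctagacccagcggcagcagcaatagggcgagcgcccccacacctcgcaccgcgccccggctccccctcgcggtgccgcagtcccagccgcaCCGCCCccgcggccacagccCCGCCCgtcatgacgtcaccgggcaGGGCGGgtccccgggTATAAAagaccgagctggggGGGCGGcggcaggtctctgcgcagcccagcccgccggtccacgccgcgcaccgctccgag
Both windows have a GC content of 79.0% and hold 5 matches to GGGCGG. TUBB3 holds 1 match to CCAAT and none to TATAAA, while TUBB2A holds 1 match to TATAAA and none to CCAAT. All 10 tubulin genes had a window: 7 held CCAAT, against 34.6% of 35116 RefSeq windows, 8 held GGGCGG, against 45.0%, and 1 held TATAAA, against 11.5%. The E-box CANNTG was in 4 of the 10, against 68.7%. None of the 4 motifs contains another whole, though matches may overlap in part. These are matches of letters on either strand and say nothing of binding.

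The other tubulin genes were measured as 8 of 12 listed, and the remaining 4 (TUBA3C, TUBA3D, TUBA3E and TUBAL3) were not analysed here. Of the 8, 5 were tested, and neither edgeR nor DESeq2 called any. TUBG1, the gamma tubulin that starts microtubules, was at 53.6 and 43.7 CPM in control and 59.8 and 76.7 CPM in U1_OE (log2 fold change 0.49 ± 0.19, edgeR adjusted p = 0.553), apart by little. TUBG2, its second copy, was at 38.6 and 37.1 CPM in control and 30.3 and 36.8 CPM in U1_OE. TUBE1 and TUBD1, the epsilon and delta tubulins of centrioles, were at 8.54 to 15.05 CPM and 4.93 to 7.70 CPM. TUBB4A, a beta isotype of brain, was at 0.646 to 1.95 CPM, and TUBA8, TUBB1 and TUBB8 were under 1 CPM in each library.

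Tubulin is folded by prefoldin, the CCT chaperonin and the tubulin cofactors. The list used also holds TBCEL and TBCK, which are not folding cofactors, so its counts are not of folding genes alone. All 22 listed genes were tested. The log2 fold change was positive in 18, against 49.3% of all genes tested, and negative in 4 (median 0.25). Of these, 13 had both U1_OE libraries above both control libraries, against 19.7% of all genes, and 2 had both below, against 22.0%. Neither edgeR nor DESeq2 called any, and 5 of 22 had an unadjusted edgeR p under 0.05, all higher, against 9.08% of all genes in either direction.

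The prefoldin subunit VBP1 was at 35.5 and 33.6 CPM in control and 49.3 and 45.9 CPM in U1_OE (log2 fold change 0.46 ± 0.13, edgeR adjusted p = 0.481). PFDN1, another prefoldin subunit, was at 115 and 84.8 CPM in control and 152 and 160.3 CPM in U1_OE (0.65 ± 0.19, edgeR adjusted p = 0.481). CCT5, a chaperonin subunit, was at 161 and 136 CPM in control and 200.1 and 239 CPM in U1_OE (0.57 ± 0.17, edgeR adjusted p = 0.489). All 3 were apart between the groups, whereas PFDN5, the most abundant of the list, had means of 591 CPM in both groups.

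Excess free tubulin is known to trigger decay of tubulin mRNA on the ribosome, through TTC5, SCAPER and the CCR4-NOT complex. Of the 7 listed genes, the log2 fold change was positive in 2, against 49.3% of all genes tested, and negative in 5 (median -0.19). Neither tool called any of them. SCAPER was at 3.14 and 8.59 CPM in control and 3.16 and 2.14 CPM in U1_OE, and overlapped. CNOT2 was at 62.2 and 60.4 CPM in control and 45.03 and 54.5 CPM in U1_OE, CNOT11 at 49.4 and 53.6 CPM in control and 42.5 and 45.8 CPM in U1_OE, and CNOT1, the scaffold, at 80.9 and 69.02 CPM in control and 64.3 and 66.98 CPM in U1_OE. These 3 subunits were lower in both U1_OE libraries, and edgeR's adjusted p was 0.619, 0.680 and 0.735. Of the 7 genes, 3 had both U1_OE libraries below both control libraries, against 22.0% of all genes, and 1 had both above, against 19.7%.

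The gamma-tubulin ring complex and its anchors, the tubulin modifying enzymes, and the proteins that sequester tubulin or sever microtubules had medians of -0.03, -0.07 and -0.04, and neither tool called any of the 12, 18 and 12 genes tested. Over all genes the median was -0.005. CDK5RAP2, an anchor of the ring complex, was at 17.5 and 19.1 CPM in control and 13.3 and 13.5 CPM in U1_OE (log2 fold change -0.45 ± 0.16). MZT2A, a small subunit, was at 67.8 and 67.5 CPM in control and 60.1 and 54.5 CPM in U1_OE (-0.24 ± 0.13), and TUBGCP2, a core subunit, at 41.0 and 43.7 CPM in control and 46.4 and 50.8 CPM in U1_OE (0.20 ± 0.13). CDK5RAP2 and MZT2A were lower and TUBGCP2 was higher in both U1_OE libraries, with edgeR adjusted p of 0.534, 0.650 and 0.700. Of the 12 genes of this list, 3 had both U1_OE libraries below both control libraries, against 22.0% of all genes. Both lay above in 2, against 19.7%. MZT2B, the most abundant of the list, overlapped at 214 to 272 CPM.

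Among the modifying enzymes, TTLL3, a glycylase, was at 35.5 and 36.3 CPM in control and 27.5 and 26.7 CPM in U1_OE (log2 fold change -0.41 ± 0.13). The deacetylase HDAC6 was at 23.8 and 27.98 CPM in control and 19.01 and 19.8 CPM in U1_OE (-0.42 ± 0.16). TTLL5, a glutamylase, was at 11.6 and 10.4 CPM in control and 13.5 and 15.1 CPM in U1_OE (0.38 ± 0.18). TTLL3 and HDAC6 were lower and TTLL5 was higher in both U1_OE libraries, with edgeR adjusted p of 0.503, 0.547 and 0.613. Of the 18 modifying enzymes tested, 4 had both U1_OE libraries below both control libraries, against 22.0% of all genes. Both lay above in 2, against 19.7%. The deacetylase SIRT2, the most abundant, overlapped at 40.3 to 57.5 CPM. STMN1, which binds free tubulin dimers, was at 95.8 and 127 CPM in control and 132 and 133 CPM in U1_OE (0.25 ± 0.18). STMN1 was higher in both U1_OE libraries, with an edgeR adjusted p of 0.720, while KIF2C, a depolymerising kinesin, overlapped at 1.16 to 4.59 CPM. Of the 12 sequestering or severing genes tested, 2 had both U1_OE libraries above both control libraries, against 19.7% of all genes. Both lay below in 2, against 22.0%.

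The marker lists were set beside the tubulin values. Of the 17 mesenchymal markers, 10 had both U1_OE libraries above both control libraries, against 19.7% of all genes, and 2 were called higher by DESeq2 (COL6A1 and POSTN), against 0.614%. Their median level was 315 and 703 CPM in control and 1086 and 584 CPM in U1_OE. Neuron markers had median levels of 1.48 and 0.929 CPM in control and 1.19 and 1.34 CPM in U1_OE, and of the 10 tested 1 (GAP43) had both U1_OE libraries above both control libraries, against 19.7% of all genes, and 2, NCAM1 among them, had both below, against 22.0%. DESeq2 called GAP43 higher (adjusted p = 4.6e-05), with levels of 3.28 and 1.29 CPM in control and 46.9 and 11.5 CPM in U1_OE. Neural progenitor markers summed to 48.7 and 45.8 CPM in control and 49.4 and 58.4 CPM in U1_OE, and glial markers to 92.7 and 115 CPM in control and 139.5 and 129 CPM in U1_OE. Of the glial sums, PDGFRA, which is also on the mesenchymal list, gave 50.5 and 56.4 CPM in control and 87.2 and 73.4 CPM in U1_OE. The median glial marker was at 0.855 and 0.736 CPM in control and 3.32 and 1.22 CPM in U1_OE. Of the 16 proliferation markers the log2 fold change was negative in 15 (median -0.51), while 49.3% of all genes tested had a positive one. The proliferation markers summed to 205 and 271 CPM in control and 173 and 231 CPM in U1_OE. Neither tool called any of the 16, and 3 had both U1_OE libraries below both control libraries, against 22.0% of all genes. The part of the mesenchymal, glial and proliferation markers in the tubulin values was not tested.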

How the data were processed

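RNA-seq of 2 control and 2 U1_OE libraries was used, grouped by sample title and genotype label. The values deposited are estimated counts per gene without normalisation, made by the authors. Per the submitters' processing notes, the tools were Trim Galore, STAR, featureCounts and DESeq2 and the build was hg38, with no versions or roles named. Most values are not whole (1.99% of those above 0 lie within 0.01 of a whole number), for a reason not given in the sources used here. Were reads divided between genes, the values of similar tubulin genes would depend on that division.

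The estimated counts were rounded and fitted with edgeR 4.0.16 (R 4.3.3): filterByExpr, which left 17317 genes, TMM scaling, and its quasi-likelihood test, Benjamini-Hochberg adjusted, at 0.05. SEs were worked back from the fold change and the F statistic. Alternatives were DESeq2 1.42.0, limma-voom (limma 3.58.1), RLE or library size scaling, a filter at a mean of 50 counts or none, a replicate block and leaving out each library in turn, which takes the remaining library of that group to vary as the other group does. The fits were run on simulated data with 200 changed genes, and only the direction of the changes was required to come back. How many of these genes each tool recovered is not reported here, so the run says nothing of power. Lengths, positions and windows came from GENCODE 29 and coding alignments were made with Biopython 1.88.

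The genes and lists were chosen with earlier results of these data known. Named were all 10 tubulin genes, all other measured tubulin genes, for each list the called genes or otherwise 3 with the smallest p plus the most abundant, and the 5 genes nearest to TUBB3. Some genes that this names and the coding tails of the alpha genes are not reported here. Exact permutation of 2 against 2 libraries cannot give a two-sided p below 0.333. The common dispersion was 0.0869, and 2 libraries per group limit the precision of every comparison.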

Additional observations from a re-analysis of the deposited data

How the results depend on the processing

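The summed tubulin level kept its direction under every setting tried: its log2 ratio was 0.73, 0.70 to 0.74 under other scalings, 0.69 per exon length and 0.51 to 0.92 with a library left out. edgeR called 0 genes under every scaling, filter and left-out library, as did limma-voom, whereas DESeq2 called 189. The DESeq2 count of tubulin genes was 4, and 0 to 7 with a library left out. With a replicate block edgeR called 0 genes (1072 at an unadjusted p under 0.05), and DESeq2 called 1 tubulin gene, TUBB3, of 80 genes in all. The labels do not say that the numbers pair libraries, and same-numbered deviations correlated at -0.173 over 12267 genes. The difference in the TUBB3 share of beta tubulin, 3.25 points, was 4.16 from counts not divided by length, 5.05 with the longest transcript and 5.11 with the coding transcript, and 2.5 to 4.0 with a library left out. The difference in the mean alpha to beta ratio, U1_OE minus control, was 0.20 and ranged from 0.13 to 0.26 over the alternatives. Of 110 alternative log2 fold changes of single tubulin genes, 102 lay within 1 SD of the main value. That SD was of log2 CPM within groups, pooled over both. Leaving out 1 of 2 libraries can hardly shift a group mean by more than that SD, so the count does not measure stability. In the 6 lists of other tubulin, folding, mRNA autoregulation, gamma complex, modifying, and sequestering or severing genes, 0 genes were called by any edgeR setting, by limma-voom or by DESeq2 with all libraries; DESeq2 with a block or a library left out was not counted for them. The coding transcript length, the block and left-out libraries for DESeq2, and the counts of those 6 lists under alternatives were chosen after seeing the data. Counts of a few reads limit TUBA8, TUBB1, TUBB8 and the neuron markers RBFOX3, DCX and STMN2, and a pair of libraries per group limits all comparisons.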
